A study of Mus musculus with 4 samples.

Results

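The comparison described here set 3T3-L1 adipocytes treated with daidzein against 3T3-L1 adipocytes treated with PBS (phosphate-buffered saline), the control of the series. 3T3-L1 is an established mouse fibroblast line that becomes fat cells when induced in culture, and both groups had been induced before treatment. The daidzein group received 25 uM daidzein for 7 days, and the PBS group received PBS over the same 7 days. The other groups of the series received 100 ug/ml of a pig testis extract (PT), or daidzein with PT. Each group was 1 Cy3-labelled array, so this comparison used 2 of 4 arrays, had no replicate and carries no p-value. Genes entered by rule: log2 of the scanner's processed signal was taken, the array's 75th percentile was subtracted, and the gene had to be flagged well above background on both arrays ("read" below). This held for 19011 of 35017 genes. A further 787 genes were read on the daidzein array only, 566 on the PBS array only and 14653 on neither.

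Daidzein is an isoflavone of soybean that binds estrogen receptors. In a maturing fat cell PPARg and C/EBPa switch on the genes of fatty acid import, triglyceride storage, lipolysis and hormone secretion, while genes of the cell cycle and of the fibroblast state are turned down. The series asks about adiponectin, a hormone that fat cells release and whose mRNA depends on PPARg.

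Both arrays lay on 1 slide in neighbouring positions (row 1, columns 3 and 4), so treatment and position cannot be told apart. The 75th percentile was 372 signal units on the PBS array and 406 on the daidzein array, and 50.7% and 51.2% of spots were well above background. Of 8 adipocyte markers, 8 were read on both arrays, and so were 8 of 8 fibroblast and preadipocyte markers. The median SD of replicate spots of a probe was 0.06 log2 units on each array, which says nothing about a second culture. The other daidzein pair of the series, daidzein+PT minus PT, shares no array with this one. Over the 18349 genes read on all 4 arrays, the gap between the pairs, scaled to the difference of 2 arrays, had an SD of 0.22 log2 units. With genes in 3 equal parts by signal, that SD was 0.34 in the dimmest part, 0.14 in the middle and 0.11 in the brightest. Any dependence of daidzein on PT is part of it. It is used below as the measure of spread.

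The median log2 difference of daidzein minus PBS was -0.03, and 44.5% of genes lay above 0. At 2-fold or more, 209 genes (1.10% of those read) were higher and 70 genes (0.368%) were lower on the daidzein array. At 4-fold or more these numbers were 59 and 4. Of the 209 higher genes 111 fell in the dimmest part, and of the 70 lower genes 50 did. In the 2 brighter parts 98 genes (0.773%) were higher and 20 (0.158%) lower, and with normexp background correction 84 of these 98 and 13 of these 20 were again past 2-fold. The larger differences were thus mainly upward, and higher genes outnumbered lower ones in each of the 3 parts.

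**Figure D1:**
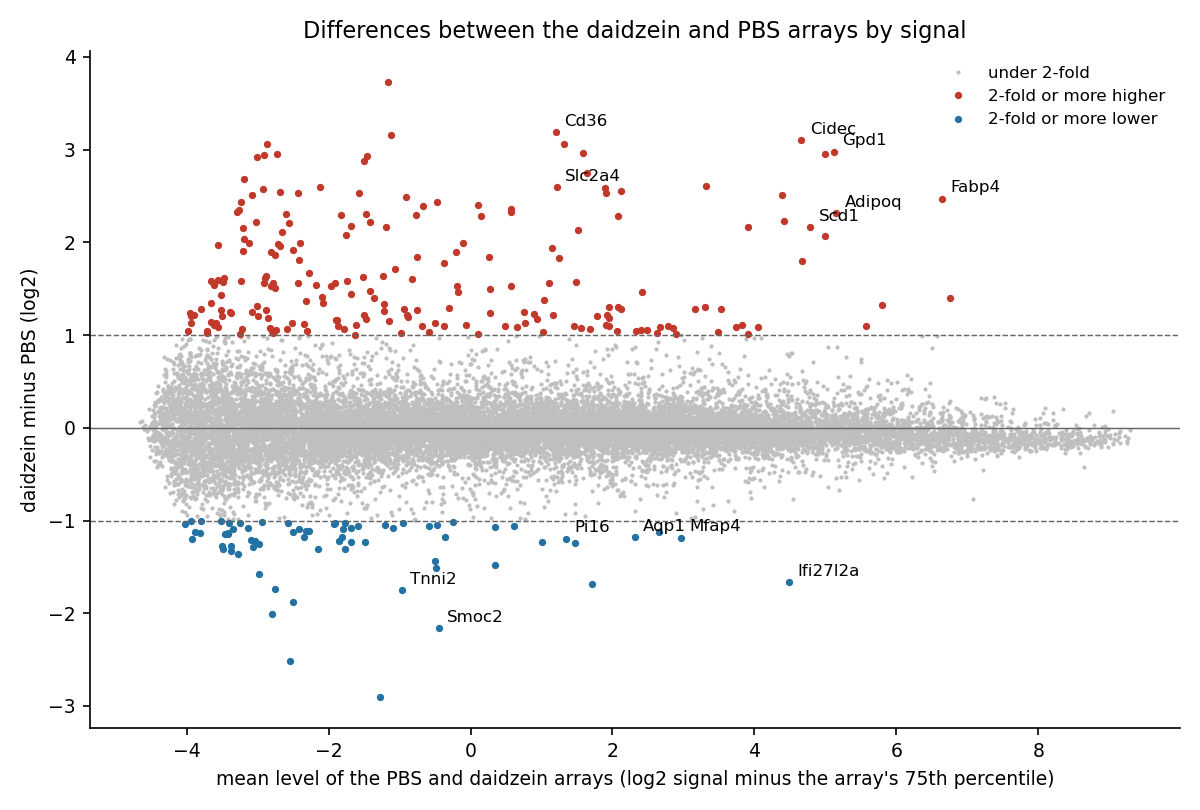
Each point is 1 of the 19011 genes read on both arrays. The x axis gives the mean level of the PBS and daidzein arrays (log2 signal minus the 75th percentile), the y axis the log2 difference, and dashed lines mark 2-fold. Red points (209 genes) outnumber blue points (70 genes), and the scatter of grey points is widest at low signal.

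Adiponectin mRNA (Adipoq) stood at 4.0 on the PBS array and 6.31 on the daidzein array, in log2 units relative to the array's 75th percentile. The log2 difference was 2.31, or 4.97-fold, against a spread of 0.11 for genes of this signal. Its probe maps to chr16:23157576-23157635 of mm9, the build of all probe positions here. The genes that read or assemble the hormone did not share this difference. The receptors Adipor1 and Adipor2 had log2 differences of 0.03 and 0.05, and the oxidase Ero1a, which helps adiponectin to be released, had -0.56. None of the 8 listed receptor and assembly genes reached 2-fold.

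Among 20 adipokines read, 10 were at least 2-fold higher and none at least 2-fold lower, beside 1.10% and 0.368% of all genes read. Their median log2 difference was 0.72, beside -0.03 for all genes. Adipsin (Cfd), a serine protease of the alternative complement pathway, went from 3.52 to 6.47 (log2 difference 2.96, or 7.76-fold). Resistin (Retn) went from 3.13 to 5.64, and its 2 probes gave 2.50 and 2.56. The acute-phase glycoproteins Orm2, Orm1 and Orm3, which lie side by side on chromosome 4, had differences of 3.06, 2.28 and 1.1; their sequences are alike and their probes may read each other's transcripts. Lipocalin 2 (Lcn2) had 1.57 and chemerin (Rarres2) 1.08. Other members pointed down or did not differ. Serum amyloid A3 (Saa3) and the adiponectin paralog C1qtnf1 were each at -0.97 and haptoglobin (Hp) at -0.11, and leptin (Lep) was not well above background on either array. Dim members added to the median: Retnla was at 3.06 on the subtracted signal but at 1.32 with normexp, Nrg4 at 2.04 and 0.79. The list's median was 0.58 with normexp and 0.02 when genes at background were counted.

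Fatty acid import and binding genes were divided by the size of the difference, with a median of 0.20. Of 15 genes 12 were above 0 and 4 at least 2-fold higher, beside 1.10% of all genes read. Cd36, the fatty acid translocase, had the highest difference among the brighter genes with a symbol. It stood at -0.39 on the PBS array and 2.80 on the daidzein array, a log2 difference of 3.19 or 9.12-fold. The fatty acid binding protein Fabp4 was at 5.41 and 7.88 (2.47), the acyl-CoA synthetase Acsl1 at 3.96 and 6.03 (2.07) and lipoprotein lipase (Lpl) at 6.06 and 7.46 (1.40). For Acsl1 and Lpl a second probe gave 2.25 and 1.5. Fabp5 and Dbi stood just under 2-fold, at 0.99 and 0.86. The transporters Slc27a1 and Slc27a4 were within 0.20 of 0, and Gpihbp1, the endothelial anchor of lipoprotein lipase, was at -0.50.

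Lipid droplet coat genes were likewise split by type. Cidec, which fuses droplets, was 8.60-fold higher (3.11 to 6.21) with a second probe at 3.31, and the adipocyte perilipin Plin1 was 5.86-fold higher (0.84 to 3.39). Plin4 had a log2 difference of 0.87. The widely expressed perilipins Plin2 (0.01) and Plin3 (-0.15) did not differ beyond 2 spreads. In all, 3 of 11 members were past 2-fold, all of them higher, beside 1.10% of all genes read. Cidea, of the same list, was read on the PBS array only.

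Lipolysis enzymes and their regulators had the largest median of the 58 lists, 1.56, with 12 of 13 genes above 0. At least 2-fold higher were 7 of them, beside 1.10% of all genes read. The median was the value of a single gene, Ces1d, and without the list's largest member it was 1.07. Adipose triglyceride lipase (Pnpla2) went from 3.30 to 5.53 (4.69-fold), hormone-sensitive lipase (Lipe) from -1.92 to 0.37 (4.91-fold) and monoglyceride lipase (Mgll) from -2.92 to 0.01 (7.64-fold, second probe 2.82). These act on tri-, di- and monoglyceride in turn. The inhibitor of the first step, G0s2, was higher too (2.43), whereas its activator Abhd5 had 0.56 on each of 2 probes. The beta-3 adrenergic receptor Adrb3 had 2.35 and the phosphodiesterase Pde3b, which opposes lipolysis under insulin, 0.09. Several members are dim, and with normexp the list's median was 0.66, Adrb3 0.88 and Mgll 1.95.

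Triglyceride assembly had a median of 0.53, with 12 of 13 genes above 0 and 6 at least 2-fold higher, beside 1.10% of all genes read. Along the pathway, glycerol-3-phosphate dehydrogenase (Gpd1) was at 3.63 and 6.61 (7.88-fold), the first acyltransferase of the adipocyte, Gpat3, had 2.29, the second, Agpat2, 1.32, the phosphatidate phosphatase Lpin1 1.49, and the last acyltransferases Dgat2 and Dgat1 1.28 and 1.05. One enzyme at every step was therefore past 2-fold, while related enzymes at the same steps were not (Gpam 0.48, Agpat1 0.20, Agpat3 -0.02, Lpin2 0.18). Pck1, which supplies glycerol 3-phosphate from pyruvate, was read on the daidzein array only, at least 5.77-fold above the PBS array. Here and for other such genes the bound uses the dimmest signal well above background on the other array, or the gene's own value there if brighter.

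Of 21 genes of fatty acid synthesis and NADPH supply, 2 were at least 2-fold higher: the desaturase Scd1 (3.71 to 5.87, difference 2.17) and the lipogenic regulator Thrsp (2.82 to 4.98, difference 2.16). The synthase chain itself differed less, with Acly at 0.36, Acaca at 0.47 and Fasn at 0.69, and the elongase Elovl6 was lower (-0.73). The list's median was 0.38, and 1.10% of all genes read were at least 2-fold higher. Cholesterol synthesis had a median of 0.40 with 23 of 26 genes above 0 and 1 past 2-fold. That gene was Insig1, the sterol sensor that holds SREBP back (1.27), followed by the enzymes Idi1 (0.85), Dhcr7 (0.74), Lss (0.74) and Mvd (0.74).

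The transcription factors above these programmes moved little as a list (median 0.02, 27 genes), yet 5 of them were at least 2-fold higher. Over all genes read that share was 1.10%. Cebpa went from -0.19 to 1.34 (1.53), the liver X receptor Nr1h3 from 1.42 to 2.72 (1.30, second probe 1.29) and Pparg from 2.97 to 4.0 (1.03). Klf15 (1.13) and the coactivator Ppargc1b (1.25) were dimmer, and with normexp stood at 0.56 and 0.37. Gata2 and Gata3, which hold preadipocytes undifferentiated, had -0.61 and -0.57. The insulin-responsive glucose transporter Slc2a4 (GLUT4) was 6.06-fold higher (-0.09 to 2.51), while Slc2a1, Irs1 and Akt1 were between -0.13 and 0.14.

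**Figure D2:**
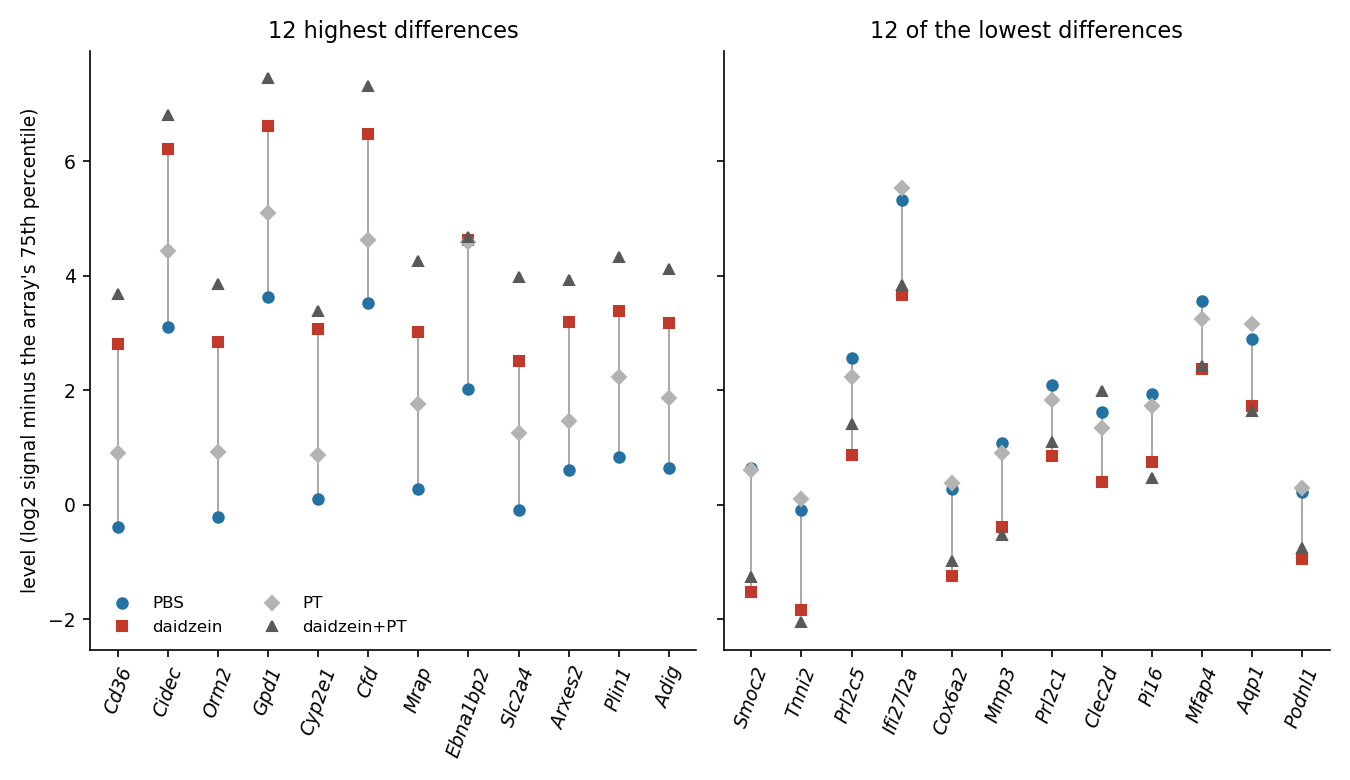
Levels on the 4 arrays (log2 signal minus the 75th percentile) of the 12 highest and 12 of the 20 lowest differences among brighter genes with a symbol. Grey lines join PBS (circles) to daidzein (squares), 1 array each. Cd36 spans -0.39 to 2.80 and Smoc2 0.63 to -1.53, and the PT array lies between these arrays for 12 of 12 genes on the left and 7 of 12 on the right.

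Receptors and secreted or metabolic genes outside lipid handling were also among the highest. Mrap, the accessory protein that carries melanocortin receptors to the surface, was 6.73-fold higher, and the receptor it serves, Mc2r, had 2.30. Cyp2e1, a cytochrome P450 of small-molecule oxidation, was 7.78-fold higher with a second probe at 2.91. The adipogenesis-associated Adig had 2.53, Arxes2 2.59, the carboxylesterase Ces1f 2.49, the liver-type glycogen phosphorylase Pygl 2.39 and the synapsin Syn2 2.33 with a second probe at 2.45. Carbonic anhydrase 3 (Car3) had 2.14 and the mitochondrial form Car5b 1.47. Their family was split, with 4 of 8 genes read above 0, a median of 0.075 and 1 member past 2-fold lower (-1.005). Hsd11b1, which regenerates active glucocorticoid, had 1.56. It belongs to a glucocorticoid response list of 16 genes read, 10 of them above 0, with a median of 0.09 and a range from -0.37 (Pdk4) to 1.57 (Lcn2). The targets Tsc22d3, Fkbp5, Sgk1, Klf9 and Zbtb16 lay between -0.04 and 0.17.

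Trem2, a receptor known from macrophages, was 5.14-fold higher (-0.62 to 1.75), and Marco was at 2.51 (0.98 with normexp). Of 10 macrophage markers 7 were read on the PBS array and 6 on the daidzein array. Of the 6 read on both, 5 were above 0, with a median of 0.15. Their summed level was 4.99 and 4.89, most of it from Itgam (4.84 and 4.70), and the defining markers Ptprc, Adgre1 and Tyrobp were at background on both arrays. Csf1r (0.04), Cd68 (0.11), Cd14 (0.19), Lyz2 (0.24) and Itgam (-0.14) did not differ beyond 2 spreads. The part of other cells in the Trem2 and Marco values was not tested.

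Mitochondrial genes showed small differences that ran one way across nearly whole lists. Respiratory complex I had 35 of 37 genes above 0 (median 0.17), complexes II and III 14 of 14 (0.32) and ATP synthase 13 of 14 (0.17). Over all genes 44.5% lay above 0. The largest members were cytochrome c (Cycs, 0.75, second probe 0.90), the Rieske protein Uqcrfs1 (0.62) and Ndufa1 (0.52). No gene of these 3 lists reached 2-fold. In cytochrome c oxidase the common subunits lay close to the list's median of 0.22, but tissue-specific subunits parted: Cox8b, of brown fat and muscle, was 7.35-fold higher (1.92 with normexp), Cox7a1 had 0.67, and Cox6a2, of heart and skeletal muscle, was 2.86-fold lower (0.27 to -1.24). Among the pathways that feed the chain, the TCA cycle and branched-chain amino acid breakdown had larger medians. The TCA cycle had 0.39 with 18 of 20 above 0, led by pyruvate carboxylase (Pcx), a supplier of oxaloacetate for lipogenesis, at 3.47-fold (3.77 to 5.57). Amino acid breakdown had 0.46 with 18 of 19 above 0. Its fat-cell transaminase Bcat2 had 1.02 and the dehydrogenase subunit Bckdhb 0.96, against -0.91 for the cytosolic transaminase Bcat1. Fatty acid oxidation had 0.24 with 21 of 25 above 0, with Cpt2 at 0.69 and Hadhb at 0.66. Peroxisomal genes had 0.19 with 24 of 28 above 0. The thermogenesis list went both ways, with 5 of 10 genes above 0 and a median of -0.04. Its 2 members past 2-fold were both higher, Cox8b and the potassium channel Kcnk3 (2.60, 1.45 with normexp), and Ppargc1a was lowest at -0.34. Ucp1 was at background on both arrays. Cidea and Fgf21 were read on the PBS array only, at least 1.66-fold and 1.65-fold lower with daidzein.

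Genes of translation had medians of opposite sign by compartment in this pair. Mitochondrial ribosomal proteins had 47 of 59 above 0 and a median of 0.09, cytosolic ribosomal proteins 3 of 51 above 0 and a median of -0.17. Brightness moved with the second value. Over the 1076 genes with a mean level above 6, the median was -0.11, for 48 cytosolic ribosomal genes in that range -0.16 and for the other genes there -0.11. With the authors' deposited quantile-normalized table the cytosolic ribosomal median was -0.05. In daidzein+PT minus PT the cytosolic median was -0.02 and the mitochondrial median 0.29. The proteasome had a median of 0.03 (31 genes) and 17 reference genes -0.01, from Pgk1 at -0.34 to Tfrc at 0.50.

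**Figure D3:**
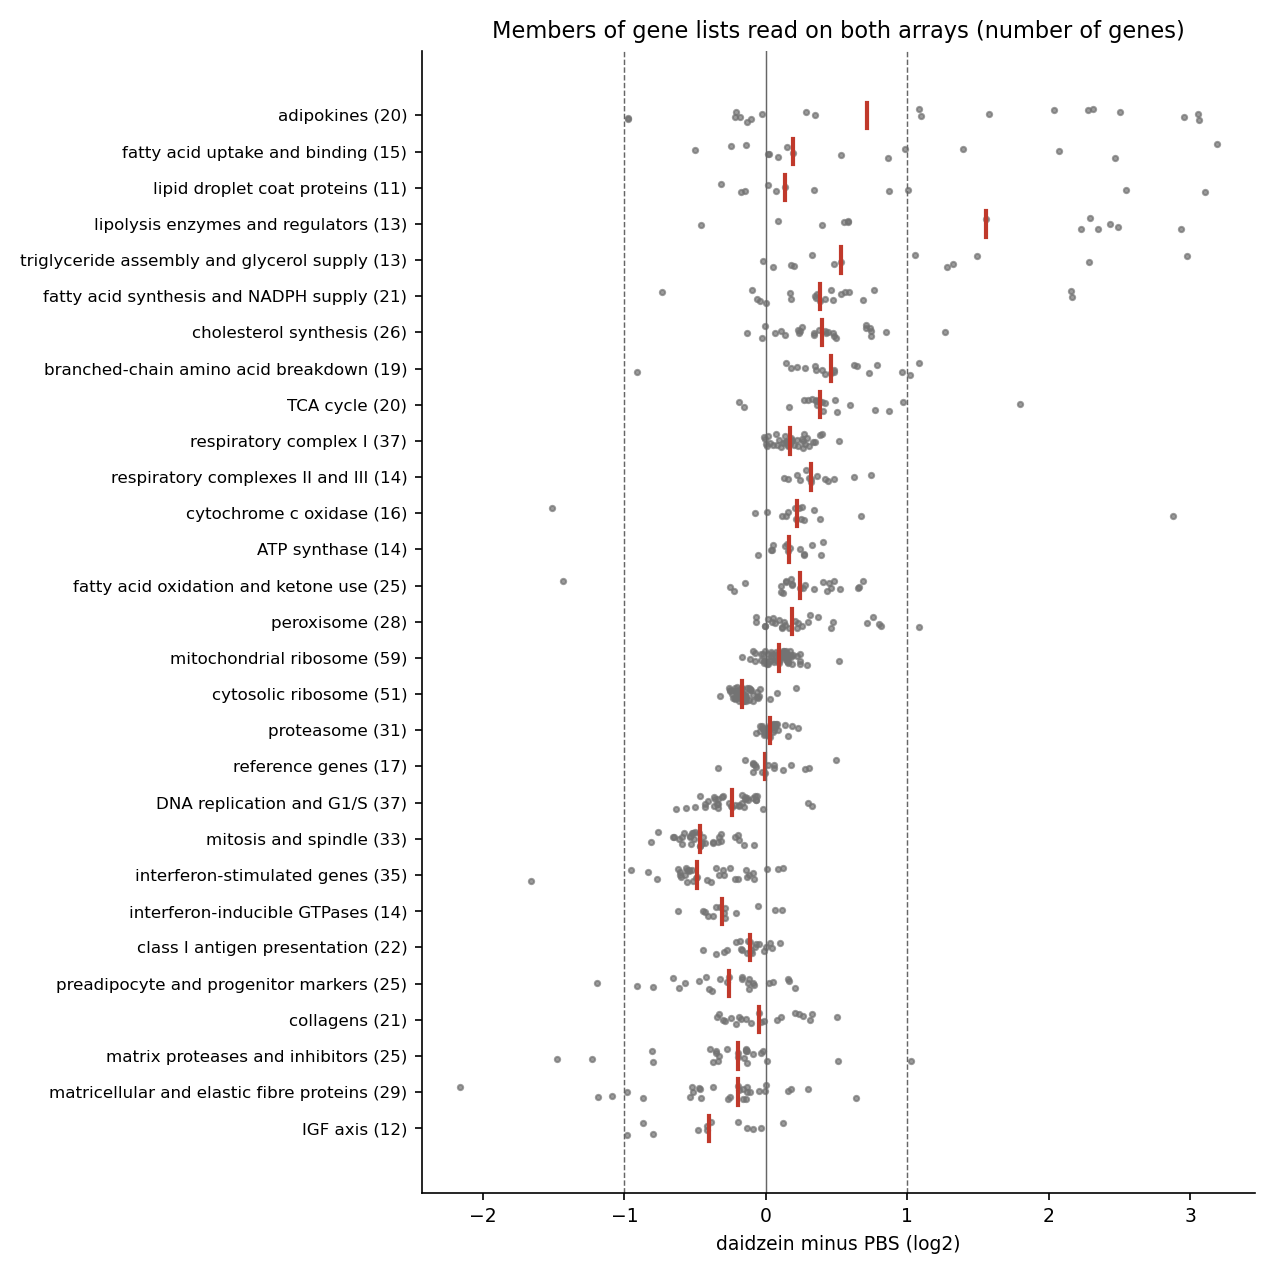
Log2 differences (daidzein minus PBS) of list members read on both arrays, 1 point per gene, with the list's median as a red bar and the number of genes in brackets. Dashed lines mark 2-fold. The lipolysis list has a median of 1.56. Mitochondrial lists sit slightly right of 0, and cell-cycle and interferon lists left of it at -0.24 to -0.49.

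Most cell-cycle genes were lower on the daidzein array, none by 2-fold. All 33 mitosis and spindle genes read were below 0, beside 55.5% of all genes read, with a median of -0.47 (1.38-fold lower). The kinesin Kif23 had -0.81, the checkpoint kinase Bub1b -0.76, Cdc20 -0.61 and the proliferation marker Mki67 -0.59 (second probe -0.62). Of 37 DNA replication and G1/S genes 35 were below 0 with a median of -0.24, among them cyclin D1 (Ccnd1, -0.64), Uhrf1 (-0.56) and the helicase subunits Mcm3 (-0.50) and Mcm5 (-0.43). Mitotic genes typically carry the CHR element in their promoters, through which they are held off in resting cells. The letters TTTGAA, on either strand, occurred within 250 bases before to 50 bases after the RefSeq start (GRCm38.p6) of 20 of 28 mitosis genes that had a promoter sequence, of 3 of 29 replication genes and of 14.5% of the 10428 genes read that had one. The E2F letters TTTCCCGC were found for 0 of 28, 7 of 29 and 2.24%. The following stretches show the match in capitals with 15 bases on either side, or fewer where the start site is reached. They come from 4 mitosis genes, among those with the most negative differences of the genes whose match lies before the start site.
Kif22: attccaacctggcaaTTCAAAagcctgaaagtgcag
Kif11: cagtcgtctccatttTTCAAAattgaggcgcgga
Cdc20: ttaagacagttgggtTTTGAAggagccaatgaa
Mki67: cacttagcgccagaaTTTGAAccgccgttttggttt
The Kif22 stretch lies at chr7:127042615-127042650 on the minus strand, Kif11 at chr19:37376348-37376381 on the plus strand, Cdc20 at chr4:118437344-118437376 on the minus strand and Mki67 at chr7:135716475-135716510 on the minus strand. The matches begin 215, 19, 18 and 116 bases before the start site.

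Interferon-stimulated genes, the antiviral set switched on by interferon signalling, were lower too. Of 35 read, 32 were below 0, beside 55.5% of all genes read, and the median was -0.49 (1.40-fold lower). The single member past 2-fold was Ifi27l2a, a small hydrophobic protein of the interferon-induced ISG12 family, which went from 5.32 to 3.66 (3.16-fold lower). The oligoadenylate synthetases Oas2 and Oas1a had -0.95 and -0.77, viperin (Rsad2) -0.84 and Ifit3 -0.56. Interferon-inducible GTPases had 12 of 14 below 0 (median -0.31, Tgtp2 at -0.62), and class I antigen presentation 18 of 22 (median -0.11, with the immunoproteasome subunit Psmb9 at -0.45). Several class I genes are bright, and the 1076 genes with a mean level above 6 also had a median of -0.11. In daidzein+PT minus PT the class I median was -0.02. Chemokines and cytokines had a median of -0.10, Ccl9 being lowest at -0.68. A match to the core of the interferon-stimulated response element, on either strand, was found for 12 of 24 interferon-stimulated genes, 9 of 9 GTPases and 4 of 19 class I genes with a promoter sequence, and for 3.70% of the 10428. Among all genes at least 2-fold lower the match occurred for 1 of 33. These stretches show the match in capitals for members that were lower.
Rsad2: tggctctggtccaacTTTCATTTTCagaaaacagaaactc
Oas1a: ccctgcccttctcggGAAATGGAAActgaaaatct
Ifit3: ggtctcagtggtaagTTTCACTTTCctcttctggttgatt
Isg15: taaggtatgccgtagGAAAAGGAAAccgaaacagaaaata
They lie at chr12:26456548-26456587 (minus strand), chr5:120907526-120907560 (minus), chr19:34583358-34583397 (plus) and chr4:156200872-156200911 (minus), and the matches begin 120, 20, 156 and 78 bases before the start.

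Further promoter searches began from lipid genes. CCAAT boxes (CCAAT on either strand) occurred for 17 of 19 cholesterol synthesis genes, 13 of 18 fatty acid synthesis genes and 43.1% of the 10428, for example before Idi1, Dhcr7 and Lss. They also occurred for 21 of 28 mitosis genes, which were lower, and for 56 of 132 genes at least 2-fold higher (42.4%), a share near that of all genes.
Idi1: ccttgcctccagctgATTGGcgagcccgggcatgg
Dhcr7: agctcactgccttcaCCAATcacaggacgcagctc
Lss: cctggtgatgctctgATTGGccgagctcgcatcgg
These lie at chr13:8885546-8885580, chr7:143830114-143830148 and chr10:76531528-76531562, all on the plus strand. A match to the direct repeat bound by PPAR and RXR, on either strand, was found for 4 of 132 genes at least 2-fold higher, 1 of 33 at least 2-fold lower and 35 of 10428. The 4 were Slc13a4 (3.16), Pdzk1 (2.31), Apoc2 (1.52) and Lctl (1.11), named here after their values were seen. All 4 were in the dimmest part by signal, and with normexp stood at 2.31, 1.51, 0.74 and 0.75. The stretch of Apoc2, the activator of lipoprotein lipase, lies at chr7:19678036-19678078 on the minus strand.
Apoc2: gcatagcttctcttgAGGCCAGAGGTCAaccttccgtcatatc
A match to the palindromic estrogen response element was in 3 of 10428 promoters, none of them of a gene past 2-fold. At so low a share (0.0288%), its absence among the 132 higher and 33 lower genes carries no information.

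Estrogen receptors and the genes known to answer estrogen showed no common direction. Esr1 and Pgr were at background on both arrays, and Esr2 was at 2.20 and 2.18. Of 16 genes read in the estrogen list 7 were above 0, and the median was -0.02. Greb1, a classical estrogen target, was the single member past 2-fold (1.47), and it stood at 0.98 with normexp. Its other probe gave 3.67 from a PBS level of -3.86, so its size is uncertain while its sign was the same on both. The corepressor Nrip1 had 0.72 and Ccnd1, also an estrogen target, -0.64. The aryl hydrocarbon targets Cyp1a1 and Cyp1a2 were at background, Tiparp had 0.10 and Cyp1b1 -0.01. Ahrr, of the same list, was read on the daidzein array only, at least 2.76-fold higher. It was not read on the PT or daidzein+PT array. NRF2 targets had a median of 0.09, with the glutathione transferase Gsta3 at 1.28 (second probe 1.33), Nqo1 at 0.30 and Hmox1 at 0.20.

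Among the lower genes, matrix and progenitor genes recurred. Smoc2, a matricellular calcium-binding protein, had the lowest difference of the brighter genes with a symbol: 0.63 on the PBS array and -1.53 on the daidzein array, a log2 difference of -2.16 or 4.48-fold lower. The elastic-fibre protein Mfap4 (3.56 to 2.37) was 2.27-fold lower, and lumican (Lum) had -0.98. The matricellular list had 24 of 29 genes below 0, 3 of them past 2-fold, and a median of -0.20. Over all genes read 55.5% lay below 0, 0.368% were at least 2-fold lower, and the median was -0.03. Stromelysin Mmp3 was 2.79-fold lower (1.09 to -0.39) and Mmp9 had -1.23 (-0.87 with normexp), whereas the inhibitor Timp4 had 1.02 (0.47 with normexp). Collagens, by contrast, had a median of -0.05 (21 genes, none past 2-fold), with basement-membrane Col4a1 and Col4a2 at 0.31 and 0.33. Progenitor markers had 20 of 25 below 0 and a median of -0.26. Pi16, a mark of adventitial progenitors, was 2.29-fold lower, Sca-1 (Ly6a) had -0.79 and Pref-1 (Dlk1), the classical preadipocyte marker, -0.42. Dpp4, of the same list, went the other way: it was read on the daidzein array only, at least 2.82-fold higher. It was not read on the PT or daidzein+PT array. Wnt10b was read on the PBS array only, at least 1.54-fold lower with daidzein. The 8 broader fibroblast and preadipocyte markers had a summed level of 10.81 on the PBS array and 10.61 on the daidzein array, and the 8 adipocyte markers 6.30 and 8.73. The part of a shift in cell make-up in the differences of other lists was not tested. The arrays are of whole cultures, in which fewer cells of a type and less RNA per cell cannot be told apart.

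Several growth-factor genes were lower. In the IGF axis 11 of 12 genes were below 0, beside 55.5% of all genes read. The list's median was -0.40 (-0.28 with normexp, -0.195 with no filter on dim probes). Igf2 was at -0.98 (-0.455 with normexp) and Igfbp6 at -0.80. The protease Pappa, which frees IGF from its binding proteins, had -0.87. Igfbp5 and Igfbp7 went the other way: they were read on the daidzein array only, at least 1.74-fold and 1.62-fold higher. H19, the imprinted non-coding RNA that neighbours Igf2, went from 0.18 to -2.72 (-2.90, second probe -2.60), and the imprinted factor Plagl1 was at -1.02. Its 4 probes ranged from -1.15 to -0.07. In the activin and BMP pathway the activin subunit Inhba was 2.10-fold lower, while the BMP-responsive inhibitors Id2, Id1 and Id3 were higher at 1.77, 1.18 and 1.09 and Id4 was not (-0.65). The prolactin-family genes Prl2c5 (2.56 to 0.87, second probe -1.64) and Prl2c1 (-1.25) are closely related genes on chromosome 13 whose probes may read each other's transcripts.

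The fast-muscle troponin Tnni2 was 3.37-fold lower (-0.09 to -1.84), Mamstr had -1.30 (-0.50 with normexp) and Tnnt2 -0.93 (-0.35 with normexp). The striated muscle list had 5 of 11 genes above 0 and a median of -0.07, its highest member being Tnnc2 at 0.43. Of the 8 skeletal muscle markers 3 were read on the PBS array and 1 on the daidzein array. Their summed level was -0.21 and -0.26, most of it from Acta1 (-0.63 and -0.46), the marker read on both. Tnnt3 was read on the PBS array alone, at least 3.28-fold lower with daidzein, as was Myh1 (at least 1.23-fold lower). Myl1, of the striated muscle list, went the other way: it was read on the daidzein array alone, at least 1.85-fold higher. The defining factors Myod1, Myog and Myf5 were at background on both. Of the remaining 20 lowest genes, the water channel Aqp1 had -1.18, mesothelin (Msln) -1.12, complement C4b -1.06, the IL-33 receptor Il1rl1 -1.05 (second probe -1.07), tetranectin (Clec3b) -1.06, Podnl1 -1.18 and Ecscr -1.03. In eicosanoid synthesis the leukotriene-pathway protein Alox5ap had -1.24 and leukotriene C4 synthase (Ltc4s) 0.99.

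A second probe of the same gene was not used to choose any gene, although it reads the same RNA sample. It existed for 5297 genes, whose 2 differences had a median gap of 0.11. Of 37 genes at least 2-fold higher with such a probe, 25 were at least 2-fold higher on it and 34 were above 0. Of 7 genes at least 2-fold lower, 6 were past 2-fold and 7 below 0. The exceptions included Sort1 (1.84 against 0.26, with a dimmer probe at 2.04), Prlr (1.60 against 0.27) and Aoc3 (1.47 against 0.31), chosen here after their values were seen. Ebna1bp2, a nucleolar protein, was at 2.61 on its brightest probe but at -0.06 and -0.30 on the others; on the brightest probe the PBS array stood at 2.02 and the other 3 arrays between 4.59 and 4.68.

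**Figure D4:**
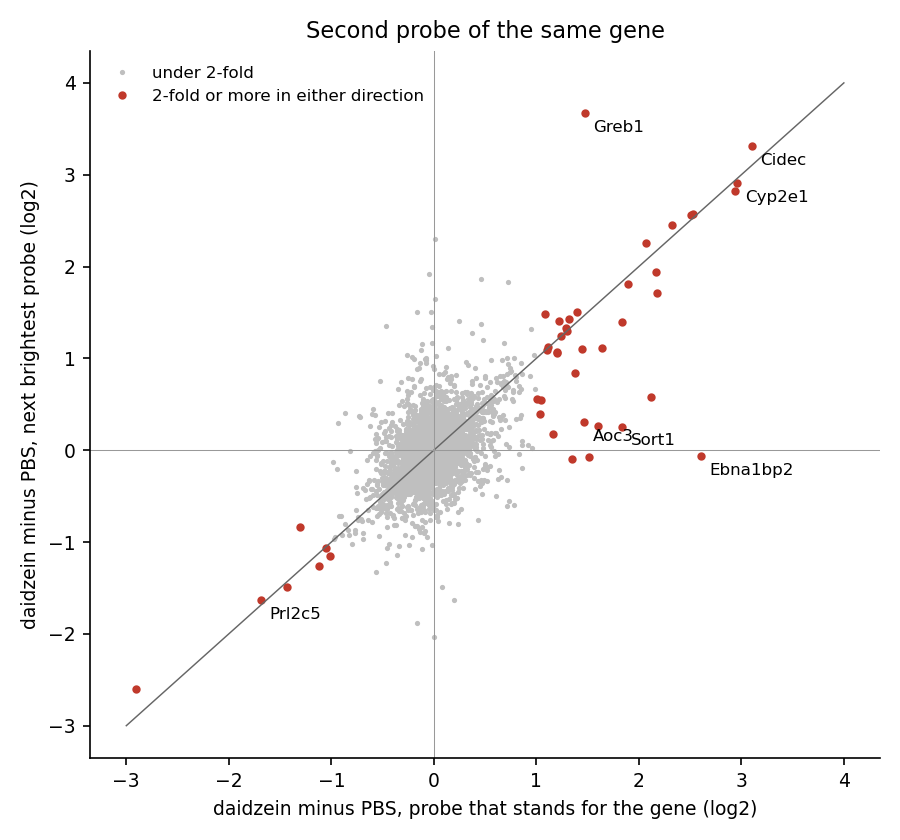
Daidzein minus PBS (log2) for the probe that stands for a gene (x axis) and its next brightest probe (y axis), for 5297 genes. The diagonal marks equal values. Genes at 2-fold or more are in red; Cidec (3.11 and 3.31) lies near the diagonal and Ebna1bp2 (2.61 and -0.06) far from it.

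The second daidzein pair gave the same genes side by side. Of the 98 brighter genes at least 2-fold higher, all 98 were above 0 in daidzein+PT minus PT and 92 were at least 2-fold. Of the 20 brighter lower genes, 19 were below 0 and 12 at least 2-fold. Some lower genes had a smaller difference there: Prl2c5 had -1.69 here and -0.81 there, Plagl1 -1.02 and -0.49. Adipokines had medians of 0.72 and 0.99, lipolysis genes 1.56 and 1.41, complex I 0.17 and 0.38, mitosis genes -0.47 and -0.23, and interferon-stimulated genes -0.49 and -0.57. Whether the pairs differ was not tested, and daidzein lay in the next slide column in both. Just inside the 2-fold limit stood Fitm2 (1.01) and Plagl1 (-1.02), just outside it Ltc4s (0.99) and Tspan18 (-0.99).

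Unnamed transcribed regions took little part: of 2428 read, 8 (0.329%) were at least 2-fold higher and 4 (0.165%) lower. Genes with a symbol read on 1 array only numbered 367 on the daidzein array and 251 on the PBS array, of which 104 and 37 had a bound of 2-fold or more. The highest bounds on the daidzein side were Hdgfl1 (at least 37.3-fold), Dnm3 (32.6), Msl3l2 (27.1), Defa10 (22.8), Nkd1 (18.9) and Akp3 (12.6). None of these 6 genes was read on the daidzein+PT array. The highest on the PBS side were Ms4a6c (at least 6.97-fold), Cyp2j5 (5.14), Kcnmb3 (4.52), Agbl2 (4.32), Clmn (4.22) and Tdpoz3 (4.20). None of these 6 was read on the PT array.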

How the data were processed

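RNA of 3T3-L1 adipocytes was hybridised to 1 single-colour Agilent array per group, per the labels. The deposited scanner files hold spot intensity on a linear scale, background-subtracted and detrended by Feature Extraction (version 10.7.1.1, per the file headers; 9.5.1.1, per the submitters' processing notes). The authors' deposited series table holds quantile-normalized intensity, as read from its values, and was used as an alternative.

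Control and outlier spots (131 for daidzein, 106 for PBS) were left out, log2 processed signal was centred on the 75th percentile, and replicate spots were averaged. A gene was represented by its brightest probe. Names came from the files, updated by accession for 27235 of 55681 probes (2838 renamed). Python 3.11.15, R 4.3.3 and limma 3.58.1 were used, and the counting was tested on simulated data. The text names the 20 highest and 20 lowest differences among genes with a symbol, read on all 4 arrays and in the 2 brighter of 3 equal parts by signal, up to 6 members per list by size, members given as background, and the 6 highest bounds on each side; some genes that the rule takes are not reported here. The comparison, the 58 gene lists and 5 marker lists were chosen with earlier results of these data known. Motifs were chosen after the differences were seen. Single arrays allow no test, and their number limits the precision.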

Additional observations from a re-analysis of the deposited data

Results flagged for a closer look

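Clec2d, a C-type lectin that serves as ligand of an inhibitory natural killer cell receptor, was the single gene among the brighter genes with a symbol and past 2-fold whose difference pointed the other way in the second daidzein pair. It was at -1.24 in daidzein minus PBS and at 0.65 in daidzein+PT minus PT, and it has 1 probe. Its levels were 1.63 on PBS, 0.39 on daidzein, 1.33 on PT and 1.98 on daidzein+PT. Whether the pairs differ was not tested.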

How the results depend on the processing

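Over 10 alternatives, quantile normalization, cyclic loess, median centring, the deposited series table, keeping outlier spots, the mean over probes and the probe with the median difference left both counts of genes past 2-fold within 1.5 times. Normexp background correction gave 116 higher and 16 lower genes, no filter on dim probes 1809 and 1155, and the 2 brighter parts alone 98 and 20. Of the 40 named highest and lowest genes, 33 stayed past 2-fold with normexp and 38 with the mean over probes, and Ebna1bp2 reversed to -0.062 with the probe of median difference. Of 580 list medians, 14 moved by more than the spread, among them adipokines with no filter on dim probes (0.015). A sign change under any alternative occurred for 10 of 58 lists, the largest of whose medians was 0.075 in size. No paired analysis was possible because PBS and daidzein hold 1 array each and so share fewer than 2 replicate numbers. A fit over all 4 arrays with PT as a term, which would average daidzein over both pairs, was not run. Low signal limits the dimmest part, where the spread was 0.34.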
